A study of Mus musculus with 6 samples.

Results

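The interferon-inducible GTPases are cytosolic enzymes that mammalian cells make in quantity after exposure to interferon, and 10 genes of 2 of their families were examined: the guanylate-binding proteins Gbp2, Gbp3, Gbp5, Gbp6, Gbp7 and Gbp9, and the immunity-related GTPases Igtp, Iigp1, Irgm1 and Irgm2. A gene was taken where a row of the deposited table was annotated with its symbol alone, with the brightest row over 6 arrays to be kept. This gave 9 genes of the 22180 tested, because the row annotated with Gbp2 also carries Gbp2b, and no value is given for Gbp2. Rows were thus to be chosen by mean signal over both groups, but each of the 9 genes had 1 row, so no measured signal decided which row was kept. The gene names were selected with results of this comparison in view, and their differences are therefore a description of these arrays, with p-values from a fit over all genes and no test of the set.

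Guanylate-binding proteins assemble on bacterial and parasite compartments in the cytosol and help to release microbial products to inflammasomes. Immunity-related GTPases act on the vacuoles of intracellular parasites, where effector members are loaded and the IRGM members hold them back from the cell's own membranes. Transcription of both families is driven mainly by interferon gamma, through STAT factors that bind gamma-activated sites (GAS) and through interferon regulatory factors that bind interferon-stimulated response elements (ISRE). PU.1, the ETS factor encoded by Spi1, can bind DNA together with IRF8 or IRF4 at composite ETS-IRF sites in myeloid cells.

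RNA came from a mouse acute myeloid leukaemia line, PU.1low URE-/-, which arose in a leukaemic URE-/- mouse and lacks the upstream regulatory element of Spi1. Cells of the vehicle group (3 arrays) received water, and cells of the treated group (3 arrays) received DB2313, called a PU.1 inhibitor in the labels, at 330 nM. Both were collected after 24 h, grew in serum with WEHI and BHK cell supernatants and carry the same deletion, so no cells with intact Spi1 control were compared. The replicates are named biological, but nothing says that they were separately started cultures of this 1 line, and the p-values therefore cover only how far these samples vary. Signals were on a log2 scale and array medians lay between 4.77 and 4.82. Genes of azurophil granules, Elane, Prtn3 and Ctsg, were among the brightest, at 13.05, 12.46 and 12.52 in vehicle, whereas the row of the leukocyte phosphatase Ptprc was dim at 3.32. Of 13 markers of the myeloid line 2 were called lower with DB2313, Cd33 (difference -1.85) and Spi1 (-0.37), where 175 of all 22180 genes were. The differences of the 13 lay above 0 for 6 and below 0 for 7, with a median of -0.0016. Of 11 T and NK cell markers, the cells that make most interferon gamma, 10 lay below the median signal of all genes, and their summed linear signal was 219 to 246 in vehicle and 224 to 233 with DB2313. The summed signal of 11 macrophage and dendritic cell markers was 455 to 469 in vehicle and 382 to 407 with DB2313, and that of 10 stromal and endothelial markers, among which Cdh5 was called higher, 769 to 833 and 896 to 955. The part of these shifts in the results was not tested.

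The regulatory sequence ahead of these genes is shown first, for Gbp5, Gbp7 and Gbp3, neighbours with large differences, and for the Igtp and Irgm2 pair, whose sequences share a block of sites. Of the 9 measured members, 6 had an entry in the RefSeq promoter table (GRCm38.p6), with 7 start sites. The 250 bases before each start are given 5′ to 3′ on the gene's strand, and capitals mark matches on either strand to a GAS (TTCNNNGAA), an ISRE core (GAAANNGAAA) or an ETS-IRF composite (GGAANNGAAA). They span chr3:142496684-142496933 for Gbp5, chr3:142530086-142530335 for Gbp7, chr3:142559794-142560043 for the first start of Gbp3, chr11:58199306-58199555 for Igtp and chr11:58214727-58214976 for Irgm2, each on the plus strand.
Gbp5: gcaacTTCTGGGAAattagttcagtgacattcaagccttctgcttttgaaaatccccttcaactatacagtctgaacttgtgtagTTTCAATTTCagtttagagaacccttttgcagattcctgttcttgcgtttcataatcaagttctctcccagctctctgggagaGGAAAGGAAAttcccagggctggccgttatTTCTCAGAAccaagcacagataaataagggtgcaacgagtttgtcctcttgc
Gbp7: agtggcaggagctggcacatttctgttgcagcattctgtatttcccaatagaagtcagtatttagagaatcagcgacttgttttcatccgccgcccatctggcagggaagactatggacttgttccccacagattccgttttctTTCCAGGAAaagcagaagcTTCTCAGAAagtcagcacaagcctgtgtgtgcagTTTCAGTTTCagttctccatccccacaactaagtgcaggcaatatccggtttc
Gbp3: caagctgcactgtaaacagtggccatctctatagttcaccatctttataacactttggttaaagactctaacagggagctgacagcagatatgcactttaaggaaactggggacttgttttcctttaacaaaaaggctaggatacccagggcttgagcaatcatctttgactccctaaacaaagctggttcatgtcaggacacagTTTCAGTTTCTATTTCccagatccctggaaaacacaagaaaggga
Igtp: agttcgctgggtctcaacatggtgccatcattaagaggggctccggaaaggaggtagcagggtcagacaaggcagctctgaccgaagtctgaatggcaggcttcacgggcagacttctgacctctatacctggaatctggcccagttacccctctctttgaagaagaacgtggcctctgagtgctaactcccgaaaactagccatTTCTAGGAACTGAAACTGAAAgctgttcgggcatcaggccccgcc
Irgm2: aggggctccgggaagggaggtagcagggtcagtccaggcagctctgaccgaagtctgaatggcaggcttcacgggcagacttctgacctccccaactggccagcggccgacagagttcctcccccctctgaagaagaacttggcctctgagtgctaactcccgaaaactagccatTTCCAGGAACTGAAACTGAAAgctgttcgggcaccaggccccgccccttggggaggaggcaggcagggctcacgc

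An ISRE core was present ahead of all 6 genes with an entry (Gbp3, Gbp5, Gbp7, Igtp, Irgm1 and Irgm2), at 6 of their 7 starts, and in 2.98% of the 32851 windows of the same length in the table. A GAS was present for 4 of the 6, Gbp5, Gbp7, Igtp and Irgm2, at 4 of the 7 starts, and in 7.02% of all windows. Gbp5 and Gbp7 each held 2 GAS matches, and in both genes 1 of them read TTCTCAGAA, beginning 52 bases before the start of Gbp5 and 87 before that of Gbp7. The ETS-IRF composite was present for Gbp5, Igtp and Irgm2, at 3 of the 7 starts, and in 2.30% of all windows. In Gbp5 that match, GGAAAGGAAA, began 82 bases before the start and overlapped GAGGAA, the core that PU.1 favours. On either strand that core was present for 3 of the 6 genes, at 3 of the 7 starts, and in 23.3% of all windows. The genes were Gbp5, Irgm2 and Gbp3, the last only ahead of its second start, which is not shown. In Igtp and Irgm2 the composite overlapped the GAS and the ISRE core in a block of 21 bases, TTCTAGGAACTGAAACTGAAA in Igtp and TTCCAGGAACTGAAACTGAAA in Irgm2, which agree at 20 bases. A match is a run of letters and says nothing on whether a factor was bound in these cells.

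With DB2313 the mean signal was higher for each of the 9 genes, by 0.16 to 0.98 on the log2 scale, and the median difference was 0.26, against -0.0024 over all genes. Gbp7 passed the threshold, an adjusted p of 0.05 in limma over all genes, and the other 8 did not. This is 1 of 9 genes, where 1.81% of all genes were called in either direction and 1.02% as higher. The 3 DB2313 arrays lay entirely above the 3 vehicle arrays for 6 of the 9, Gbp3, Gbp5, Gbp7, Gbp9, Igtp and Iigp1, and for 9.75% of all genes. At an unadjusted p under 0.05 in limma there were 6 members (Gbp3, Gbp5, Gbp7, Gbp9, Igtp and Iigp1) and 12.7% of all genes. Nothing is read from these shares, since the members were chosen with the results known. In bulk RNA, more cells with a transcript and more of it per cell cannot be told apart. The mean over the 9 genes, each centred on its own mean, lay between -0.23 and -0.10 on the vehicle arrays and between 0.17 and 0.20 on the DB2313 arrays.

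**Figure D1:**
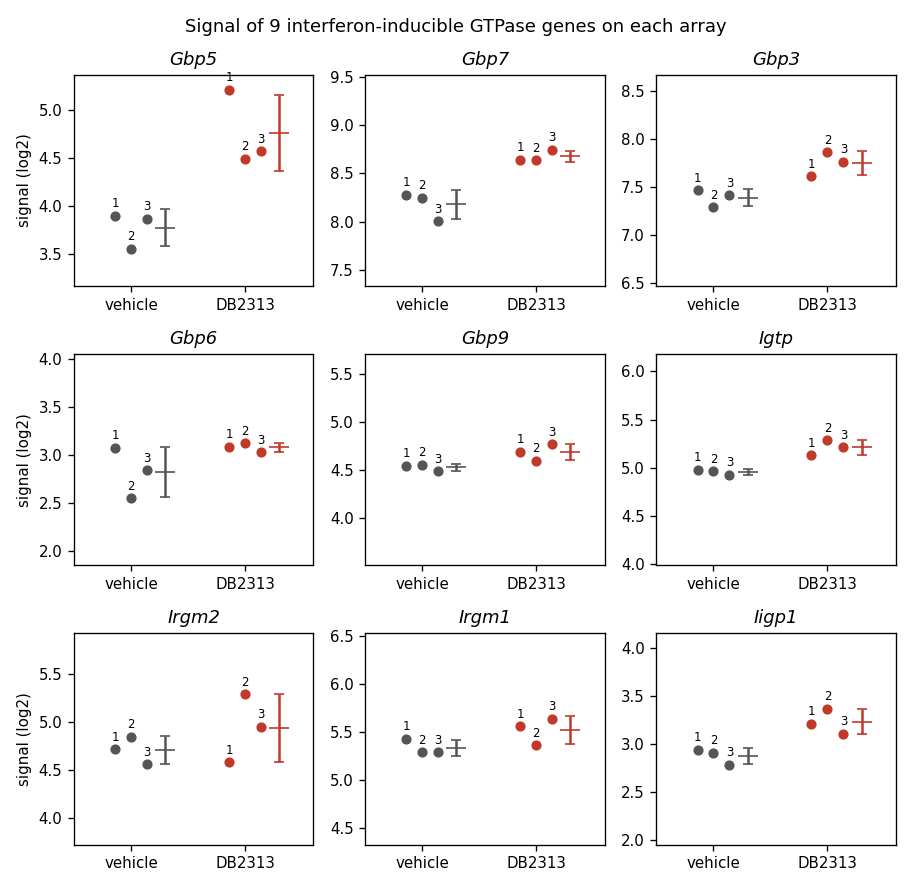
Signal (log2) of the 9 genes on each array, with the replicate number above each point and the group mean ± SD (n = 3) beside it; every panel spans the same number of log2 units. The groups separate for Gbp5, Gbp7, Gbp3, Gbp9, Igtp and Iigp1 and overlap for Gbp6, Irgm1 and Irgm2.

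Among the guanylate-binding proteins, Gbp7, which takes part in defence against bacteria and parasites in macrophages, was the member that passed, on a row at the 87.8 percentile of signal. Its vehicle arrays read 8.28, 8.25 and 8.003 and its DB2313 arrays 8.64, 8.64 and 8.75. The treated arrays lay close together, all above the highest vehicle array. The difference was 0.50 (SE 0.088, limma adjusted p = 0.0376), or 1.41-fold, with a 95% interval of 0.30 to 0.70. Gbp7 no longer passed without any 1 of the 6 arrays, with limma adjusted p between 0.0709 and 0.150, while the difference stayed between 0.41 and 0.55. It did not pass either when all rows of the table, named or not, were tested (adjusted p = 0.134).

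Gbp5, which promotes inflammasome assembly and carries a lipid anchor, had the largest difference and missed the threshold. It read 3.90, 3.55 and 3.87 in vehicle and 5.21, 4.49 and 4.57 with DB2313. DB2313 replicate 1 stood above the other 2 treated arrays by more than the whole vehicle range, and even the lowest treated array was 0.59 above the highest vehicle array. The difference was 0.98 (SE 0.192, limma adjusted p = 0.0550), a 1.98-fold change with an interval of 0.54 to 1.43, and it was 0.75 without DB2313 replicate 1 (adjusted p = 0.0571). Gbp5 passed in limma with the dimmest 25% of genes left out (adjusted p = 0.0399), after median centring (0.0395) or quantile normalization (0.0468), and with a trended prior (0.00770). Of 14 alternatives, 9 left Gbp5 uncalled, with limma adjusted p up to 0.176. The row was dim, at the 32.6 percentile of signal. After 32 was added to the linear signals as an offset, which damps dim rows, the difference was 0.38 (limma adjusted p = 0.0787).

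Gbp3, the neighbour of Gbp7, read 7.46, 7.29 and 7.41 in vehicle and 7.61, 7.86 and 7.76 with DB2313. The groups did not overlap, but the nearest arrays, vehicle replicate 1 and DB2313 replicate 1, were 0.15 apart, less than the range within either group (0.17 and 0.25). The difference was 0.36 (SE 0.085, interval 0.16 to 0.55) and did not pass (limma adjusted p = 0.110). Gbp3 and Gbp7 were the 2 members in the brightest 25% of genes, where 3.91% of genes were called.

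Gbp9 and Gbp6 lie in a separate cluster of guanylate-binding protein genes. Gbp9 read 4.54, 4.55 and 4.49 in vehicle and 4.69, 4.60 and 4.76 with DB2313, a separation of 0.04 between the nearest arrays. Its difference of 0.16 did not pass (limma adjusted p = 0.393). Gbp6 was the dimmest member, at the 8.65 percentile, and read 3.07, 2.55 and 2.84 against 3.08, 3.12 and 3.03. Vehicle replicate 1 fell inside the treated range, and the difference of 0.26 did not pass (limma adjusted p = 0.456, interval -0.03 to 0.54).

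Among the immunity-related GTPases, none of 4 passed. At an unadjusted p under 0.05 in limma there were 2, Igtp and Iigp1, and 12.7% of all genes. Igtp, an IRGM protein also called Irgm3, read 4.98, 4.96 and 4.92 in vehicle and 5.13, 5.29 and 5.21 with DB2313. The vehicle arrays differed by 0.05 and all treated arrays lay above them. The difference was 0.25 (SE 0.065, interval 0.10 to 0.41, limma adjusted p = 0.136).

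Iigp1, the parasite vacuole effector also called Irga6, read 2.94, 2.91 and 2.78 in vehicle and 3.21, 3.37 and 3.11 with DB2313. The groups did not overlap, but the row lay at the 10.3 percentile of signal, and the difference of 0.35 (SE 0.085, limma adjusted p = 0.114) became 0.07 with the offset of 32.

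The regulatory members Irgm1 and Irgm2 had overlapping groups. Irgm1 read 5.43, 5.29 and 5.29 against 5.56, 5.36 and 5.64, a difference of 0.18 (limma adjusted p = 0.448). Irgm2 read 4.72, 4.84 and 4.56 against 4.58, 5.28 and 4.95. DB2313 replicate 1, the highest array for Gbp5, was the lowest treated array for Irgm2 and lay below 2 of the 3 vehicle arrays. The Irgm2 difference of 0.23 did not pass (limma adjusted p = 0.649), and was 0.41 without that array.

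**Figure D2:**
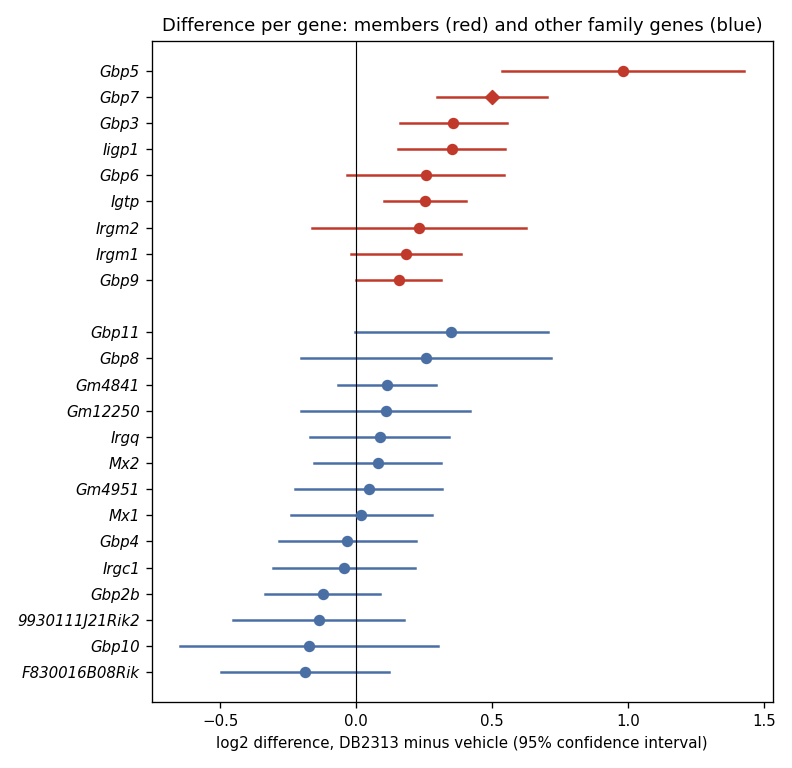
Difference between DB2313 and vehicle (log2, limma, with 95% intervals) for the 9 members (red) and 14 other listed genes of interferon-inducible GTPase families (blue). The diamond is Gbp7, the gene past the threshold. The 9 members lie between 0.16 and 0.98, and the other 14 between -0.19 and 0.35 with intervals that include 0.

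The members are not the whole of these families. Of 14 further listed genes of interferon-inducible GTPase families with a row of their own, none passed in limma and none had an unadjusted p under 0.05. Of these, 8 had a value above 0 and 6 below, and the groups overlapped for each. Whether interferon induces each of the 14, among them Irgc1 and Irgq, was not tested. Gbp11 had 0.35 and Gbp8 0.26, both on dim rows below the 10 percentile of signal. Gbp2b had -0.12, Gbp4 -0.03 and Gbp10 -0.17 (interval -0.65 to 0.30). Irgb10, listed as Gm12250, which helps to open bacteria in the cytosol, had 0.11. The remaining immunity-related genes had 0.11 (Gm4841), 0.09 (Irgq), 0.05 (Gm4951), -0.04 (Irgc1), -0.14 (9930111J21Rik2) and -0.19 (F830016B08Rik). The antiviral GTPases Mx1 and Mx2, which answer mainly to type I interferon, had 0.02 and 0.08. Over the 23 genes together, 17 values were above 0, the median was 0.11 and 1 gene was called. Ifi47, Tgtp1, Tgtp2 and Gvin1 share rows with other symbols and are not reported.

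Signal limits these readings. Of the 9 members, 6 lay below the median signal of all genes, 5.17, and of the 23 genes 18 did. In the dimmest 25% of genes, where Gbp6 and Iigp1 lie, 0.144% of genes were called, and in the next 25%, with Gbp5, Gbp9, Igtp and Irgm2, 0.361%. Background was not measured in the values used here, so a dim row cannot be told from an unexpressed gene, and signals of different rows give no order of transcript levels. The genes also have close relatives, and the probes were not checked for shared sequence.

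**Figure D3:**
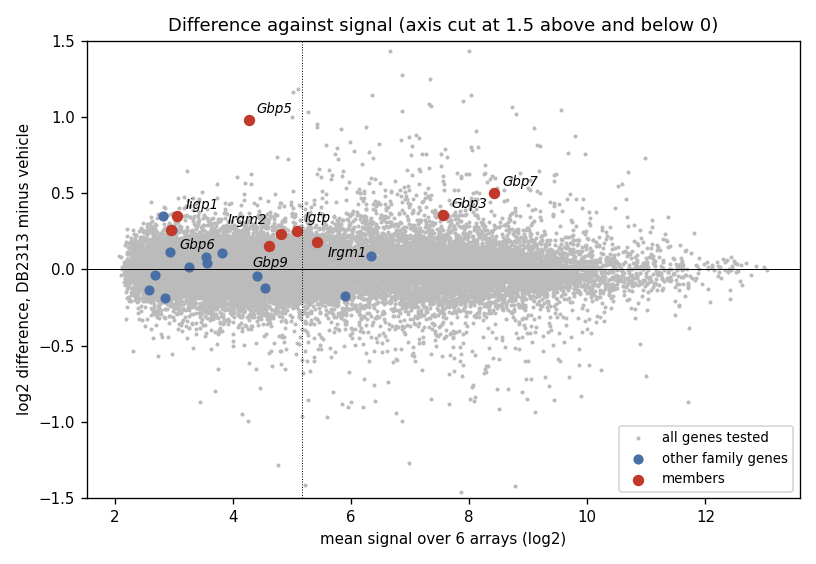
Difference between DB2313 and vehicle (log2) against mean signal over 6 arrays (log2) for all 22180 genes (grey), the 9 members (red) and 14 other family genes (blue); the dotted line is the median signal, 5.17, and genes beyond the vertical axis are not drawn. Gbp5 lies at 0.98 with a mean signal of 4.27, and Gbp3 and Gbp7 are the members in the brightest 25% of genes.

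Gbp5, Gbp7 and Gbp3 are neighbours and had the 3 largest differences, though Gbp3 (0.36) and Iigp1 (0.35), which lies elsewhere, were nearly tied. In the RefSeq gene order (GRCm38.p6, protein-coding genes and the listed family genes) Gbp5, Gbp7, Gbp3, Gbp2b and Gbp2 follow each other, and the differences ran 0.98, 0.50, 0.36 and -0.12, with no value for Gbp2. The flanking genes Bmpr1b and Pdlim5 before Gbp5 had -0.03 and -0.04, and Kyat3 and Gtf2b after Gbp2 had 0.06 and 0.04. Among these flanking genes the groups did not overlap for Gtf2b only. In the other guanylate-binding protein cluster Gbp8, Gbp9, Gbp4, Gbp10, Gbp6 and Gbp11 had 0.26, 0.16, -0.03, -0.17, 0.26 and 0.35, with none called. The flanking Zfp951 and Abcg3 had 0.07 and -0.04. Lrrc8b and Lrrc8c, on the other side, had 0.16 and -0.23, both without overlap of the groups (limma adjusted p = 0.387 and 0.147). Igtp and Irgm2 lie next to Gm12250, and the flanking genes Gemin5 and Mrpl22 had 0.13 and 0.02, and 4930438A08Rik and Zfp692 0.0006 and 0.02. Beside Irgm1, Trim7 had -0.03 and the next gene, Trim41, encoding a ubiquitin ligase, was called higher by 0.34 (limma adjusted p = 0.0462). Gm5431 and Gm12185, on the other side of Irgm1, had -0.29 and -0.22 and did not pass. The groups did not overlap for Gm5431 (interval -0.48 to -0.09). Neither gene was on the list of 14 further genes, so both are outside its counts and those over 23 genes. These neighbours were looked up after the members' values were seen, and no difference between clusters was tested.

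**Figure D4:**
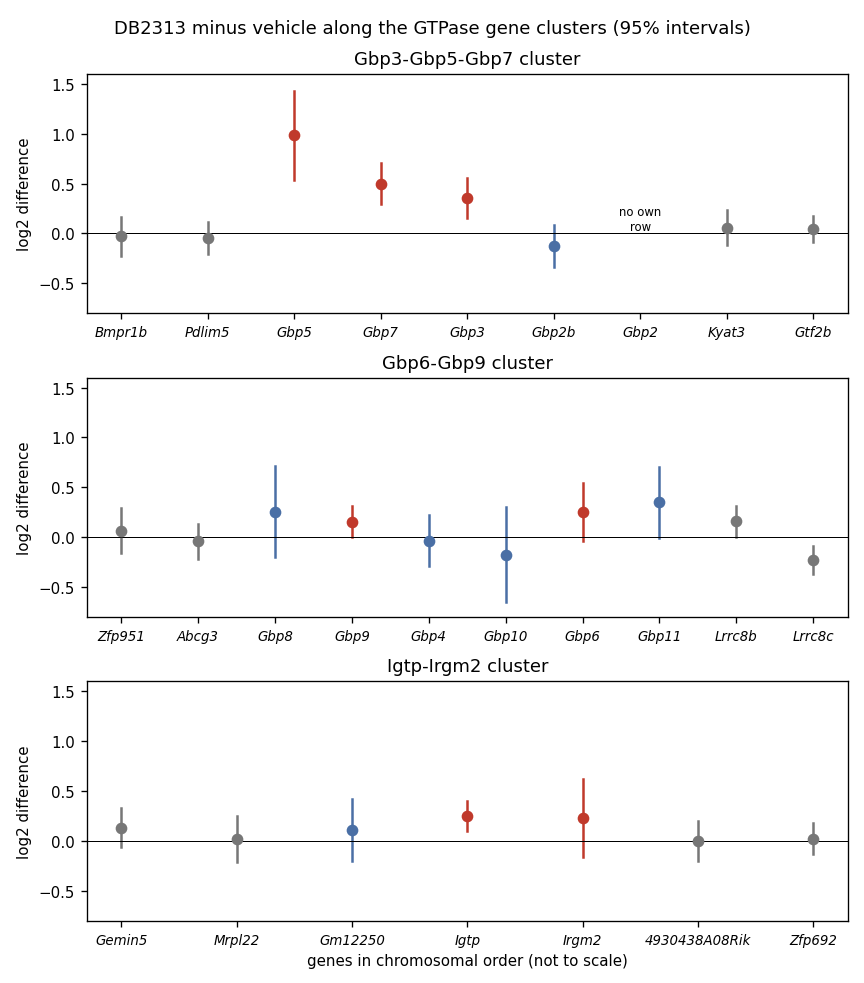
Difference between DB2313 and vehicle (log2, 95% intervals) for members (red), other family genes (blue) and flanking genes (grey) in RefSeq order along 3 gene clusters. Gbp5, Gbp7 and Gbp3 stand side by side at 0.98, 0.50 and 0.36. After Gbp3 come Gbp2b, at -0.12, and Gbp2, which has no value, and the flanking genes of that cluster lie close to 0.

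Genes listed for the interferon pathway were examined by role, and in 4 lists 1 of 42 genes (2.38%) was called, near the 1.81% of all genes. None of 10 interferon ligand genes passed in limma (1 had an unadjusted p under 0.05, as did 12.7% of all genes). Interferon gamma itself, Ifng, read 4.35, 4.15 and 4.10 in vehicle and 4.35, 4.10 and 4.10 with DB2313, a difference of -0.02 (interval -0.25 to 0.21). The row for interferon beta, Ifnb1, was dim, with a difference of 0.09, and the smallest p among the ligands was that of the interferon lambda gene Ifnl3, at -0.32 (limma adjusted p = 0.188).

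None of 9 receptor and kinase genes passed in limma. An unadjusted p under 0.05 was reached by 4, Ifngr2, Ifnar1, Il10rb and Tyk2, where 12.7% of all genes did so, and the groups did not overlap for 6, against 19.3% of all genes. Ifngr1, the ligand-binding chain of the interferon gamma receptor, was bright (11.56 in vehicle, 11.59 with DB2313) with a difference of 0.03 (interval -0.10 to 0.16). Its partner Ifngr2, which brings JAK2 to the receptor, read 7.68, 7.53 and 7.74 against 7.36, 7.49 and 7.42, so that the groups did not overlap, and had -0.23 (limma adjusted p = 0.251). The chains of the type I receptor, Ifnar1 and Ifnar2, had -0.18 and -0.07, and Il10rb, the shared chain of the interferon lambda receptor, had -0.18. The kinase genes Jak1, Jak2 and Tyk2 had -0.06, 0.21 and 0.14.

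Of 12 genes listed as STAT and IRF factors, a list that also holds other regulators, none passed in limma. An unadjusted p under 0.05 was reached by 1, and by 12.7% of all genes. It was the class I transactivator Nlrc5 (0.23, limma adjusted p = 0.327), which is neither a STAT nor an IRF. Irf1, an early target of interferon gamma, had -0.07, Irf8, a partner of PU.1, -0.13 (interval -0.40 to 0.14), Irf9 0.04 and Stat2 0.08. Spi1 itself was lower by 0.37 (limma adjusted p = 0.0342), reading 6.79, 6.88 and 6.95 in vehicle and 6.52, 6.49 and 6.50 with DB2313, and that call too was lost without any 1 array.

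Among 11 inhibitors of interferon signalling 1 fell, Socs3, which restrains JAK kinases at cytokine receptors. It read 7.56, 7.80 and 7.54 in vehicle and 7.09, 7.16 and 6.99 with DB2313, a difference of -0.56 (limma adjusted p = 0.0250). Socs3 did not pass without any 1 of the arrays (limma adjusted p from 0.0579 to 0.109). These values are from the brighter of its 2 rows. Over all alternatives, which include the mean of its rows, the weakest difference was -0.38. In that list 3 genes had an unadjusted p under 0.05 in limma, against 12.7% of all genes, and the groups did not overlap for 5, against 19.3%. Ptpn1, a phosphatase that acts on JAK kinases, had -0.41 without overlap and just missed the threshold (limma adjusted p = 0.0550). Socs1, the stronger inhibitor of interferon gamma signalling, had -0.16 and did not pass (limma adjusted p = 0.625).

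Of 19 other measured genes that interferon gamma induces, 1 was called as higher, where 1.02% of all genes were, and the median was 0.04. Values lay above 0 for 15 of the 19 and for 10899 of all 22180 genes. An unadjusted p under 0.05 in limma was reached by 2, against 12.7% of all genes. The groups did not overlap for 5, against 19.3%. The called gene was Cd274, encoding the checkpoint ligand PD-L1, which read 7.06, 7.23 and 7.25 in vehicle and 7.86, 7.82 and 7.89 with DB2313. The groups were well apart, the difference was 0.68 (SE 0.071, limma adjusted p = 0.00523), and the call held when any 1 array was left out. The chemokine genes Cxcl9, Cxcl10 and Cxcl11, which are classic targets, had -0.07, 0.03 and 0.08, and the immunoproteasome and peptide transport genes Psmb8, Psmb9, Tap1 and Tap2 had 0.08, 0.04, 0.13 and 0.14. These 7 were named for their known role, and none passed.

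Genes whose products act with the GTPases were taken in 3 lists. None of 10 genes of the autophagy conjugation system, which guides the GTPases to vacuoles, passed in limma. An unadjusted p under 0.05 was reached by 3 of them, against 12.7% of all genes. Atg12 had the smallest p, at 0.25 (limma adjusted p = 0.158), and passed in 3 of 15 alternatives. Of 11 partners in cell-autonomous defence 1 was called lower, where 175 of all 22180 genes were. It was the inflammasome sensor Nlrp3, which read 6.02, 5.81 and 5.97 in vehicle and 4.64, 4.16 and 4.77 with DB2313 (difference -1.41, limma adjusted p = 0.00544). In that list 5 genes had an unadjusted p under 0.05 in limma, against 12.7% of all genes, and the groups did not overlap for 5, against 19.3%; besides Nlrp3 the largest of these was Casp4, the caspase that senses cytosolic lipopolysaccharide, at 0.30 (limma adjusted p = 0.199). None of 6 genes for prenylation and nucleotide exchange passed in limma, with none at an unadjusted p under 0.05, and Gdi2 had the smallest p, at -0.13.

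**Figure D5:**
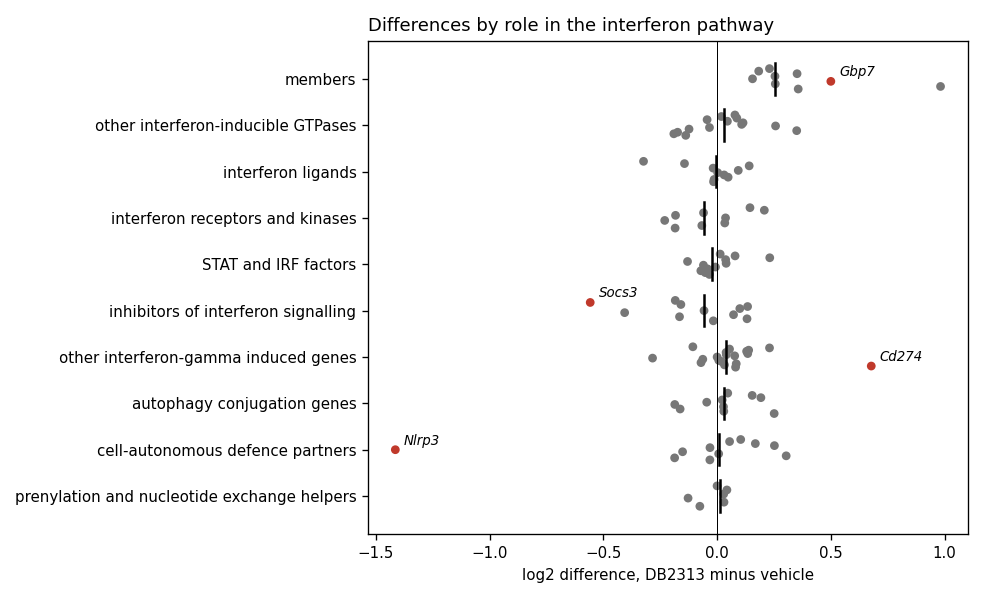
Difference between DB2313 and vehicle (log2) per gene, by role, with a bar at each list's median; red points passed an adjusted p of 0.05 in limma. Gbp7, Socs3, Cd274 and Nlrp3 are the genes past the threshold, and the medians of the lists other than the members lie between -0.06 and 0.04.

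The genes whose pattern was closest to that of Gbp5, the member with the largest difference, were Mir340, Serpinb9f and Magi3. Their root mean square differences from Gbp5, over 6 arrays with each gene centred on its own mean, were 0.13, 0.14 and 0.20. Serpinb9f, a protease inhibitor gene, read 4.78, 4.75 and 4.73 in vehicle and 6.06, 5.59 and 5.70 with DB2313. As for Gbp5, DB2313 replicate 1 was the highest array for all 3. The likeness rests mainly on the difference between the groups and on that array.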

How the data were processed

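Total RNA of 6 samples was labelled with a whole-transcript kit and hybridised to Affymetrix arrays, per the labels' protocols, and processed with Affymetrix Expression Console, per the submitters' processing notes. The deposited values are log2 signals, 1 per row and array, as judged from their range; background correction, summarisation and genome build are not stated there. Near-equal quartiles show that arrays were probably normalized before deposit, which would hide a shift in total RNA. Of 41345 rows, 23521 carry 1 symbol, 1814 several and 16010 none; only the first were named, with the brightest row per gene, which left 22180 genes. For 23328 of these rows the gene identifier was found in RefSeq (GRCm38.p6).

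DB2313 was compared with vehicle by lmFit and eBayes in limma 3.58.1 (R 4.3.3), 2-sided, with Benjamini-Hochberg adjustment over all genes, on 3 against 3 arrays, whose number limits the precision. The procedure was tested on simulated data with independent normal noise, drawn with the variances that the fit assumes. That run cannot show how the procedure does where real arrays depart from these assumptions. Named were the members, the other family genes, a fixed set of pathway genes, each list's genes past the threshold or the gene with the smallest p, and the 3 genes closest to Gbp5 in pattern; other names were added after their values were seen. The members and lists were chosen with earlier results of these data known. Alternatives were signal filters, quantile normalization, median centring, an offset of 32, a trended prior, the replicate block, the mean of rows, all rows tested, and leaving out each array. Motifs were searched in the 250 bases before each RefSeq start.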

Additional observations from a re-analysis of the deposited data

How the results depend on the processing

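Each of the 127 values of the 9 members under the alternatives was above 0. The count of members called, 1 as reported, was 2 with the dimmest 25% of genes or all genes below the median signal left out, with quantile normalization, with median centring and with the offset of 32, 3 with a trended and robust prior, 0 with all rows tested, and 0 without any 1 array. Gbp5 was the added call with the dimmest 25% left out (limma adjusted p = 0.0399), quantile normalization (0.0468) and median centring (0.0395), Gbp3 with genes below the median left out (0.0342) and with the offset (0.0488), and both with the trended prior (0.00770 and 0.0188). The median difference of the members was 0.36 with genes below the median left out (3 members remaining), 0.11 with the offset, and 0.26 to 0.38 when 1 array was left out.

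The count of genes called, 401, was 799 with genes below the median left out, 830 with the offset, 920 with the trended prior, 142 with all rows tested and 136 to 187 when 1 array was left out, the fewest without DB2313 replicate 3. Samples with the same replicate number did not deviate together (correlations of 0.02, 0.08 and 0.008), so the numbers were not taken as a pairing; with the replicate block 190 genes were called, and 1 member, which was Gbp5 (limma adjusted p = 0.0459) and not Gbp7 (0.126).

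Without 1 array, uncalled genes near 0 changed sign: Ifng ranged from -0.10 to 0.058, Gbp4 from -0.14 to 0.066, Irgc1 from -0.14 to 0.075, Irgq from -0.023 to 0.18, Gm12250 from -0.014 to 0.22, Gm4951 from -0.078 to 0.11 and Mx1 from -0.090 to 0.096. Where an alternative changed a call, the cause was not tested, apart from the fewer samples or fewer or more genes tested that leaving out arrays, filtering or testing all rows entail.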
